A study of Mus musculus with 48 samples.

Results

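The constitutive proteasome genes were taken as all probes whose annotated symbol begins with Psma, Psmb, Psmc, Psmd, Psme or Psmg, without the interferon-inducible catalytic subunits Psmb8, Psmb9 and Psmb10. The array carried 73 such probes of 45 genes, and 41 genes had a probe with a detection p under 0.01 on at least 6 of the 48 arrays, out of 9869 named genes measured this way. Psma6, Psma8, Psmb11 and Psmg4 were detected on 0 arrays and have no values here. One probe stands for each gene, the one with the highest mean. The 41 genes comprise 13 of the core particle, 17 of the regulatory particle, 3 assembly factors of the regulatory particle, 2 assembly factors of the core particle and 4 activators. The last 2, Psmc3ip (a meiotic recombination factor) and Psme3ip1 (a protein that binds Psme3), share the prefix and are not subunits.

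The 48 Illumina arrays measured RNA of cortical neuron cultures of the outbred mouse stock CD-1. After 7 days in culture each received its compound 1 h ahead of a 1 h exposure to NMDA, and RNA followed 16 h later. NMDA opens a glutamate-gated calcium channel, and every culture received it, the controls included. The groups are 4 compounds labelled NMDAR antagonist (ifenprodil, MK-801, riluzole and memantine, protection ratio 1.40 to 1.87), 10 other compounds of the protective class (1.40 to 2.76), 16 intermediate compounds on 18 arrays whose ratios of 1.02 to 1.38 place them in neither class, 6 non-protective compounds (0.61 to 0.98) and 10 controls, 5 with vehicle (DMSO) and 5 mock (water). The labels give water, DMSO or ethanol as the solvent of the compounds, and no control received ethanol. Most compounds have a single array. Z-VAD-FMK has a repeat, and so has MitoPBN, if its second label (MitoPBN2) names the same compound. The labels do not name separate cultures, so p-values measure the spread between these samples, which may be technical.

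The proteasome degrades proteins that have been marked with ubiquitin. Its core particle is a barrel of alpha and beta rings in which Psmb5, Psmb6 and Psmb7 cut the chain, and its regulatory particle, a base of Psmc ATPases and a lid of Psmd subunits, recognises, unfolds and feeds in the substrate. Activators of the Psme family open the barrel without that machinery, and dedicated chaperones assemble both particles. In neurons the proteasome also tunes the protein content of synapses.

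All values are log2 normalized intensities, in which 1 unit is a doubling, and levels are compared between arrays for the same probe, never between probes. Expression was tested with limma over 17815 detected probes, with Benjamini-Hochberg adjusted p-values and a threshold of 0.05. Arrays had median signals of 36.1 to 124, and 26.3% to 39% of their probes were detected. Position on the chip follows the groups: positions C to F hold compounds, position B holds 6 compounds and 2 controls, and position A holds 0 compounds and 8 controls, so no antagonist shares a position with a control. Part of the probes, some of them of proteasome genes, also stood lower on all 18 arrays of chips 6 to 8 than on the 30 arrays of chips 1 to 5, as described with the chips.

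In cultures given an NMDAR antagonist 1 activator gene was above the controls, and most genes of both particles did not pass the test: 1 of 13 core genes and 2 of 17 regulatory genes did. Of the 41 genes, Psme3 rose and Psmc4, Psma7, Psmd7 and Psmd5 fell, against 23.5% of all probes called in this comparison (12.2% higher and 11.3% lower). The members' share is thus below that of the array as a whole. The median difference was -0.19 over the 13 core genes, -0.04 over the 17 regulatory genes and -0.05 over all probes tested. All 13 core genes had a negative difference (-0.31 to -0.03), and so had 11 of 17 regulatory genes. The genes were read on the same arrays, so their signs are not independent. The 13 core genes were negative under each of the 4 ways of scaling the arrays. Against the controls of the same chip the sign was less uniform, with 12, 11 and 11 of the 13 lower on chips 3, 4 and 7. There the order of the particles turned. The regulatory median was -0.27, -0.17 and -0.14 on these chips, against -0.13, -0.14 and -0.12 for the core. A lower core than regulatory median was thus not seen within chips. Of the 41 genes, 11 had an unadjusted p under 0.05, against 36.1% of all probes.

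**Figure D1:**
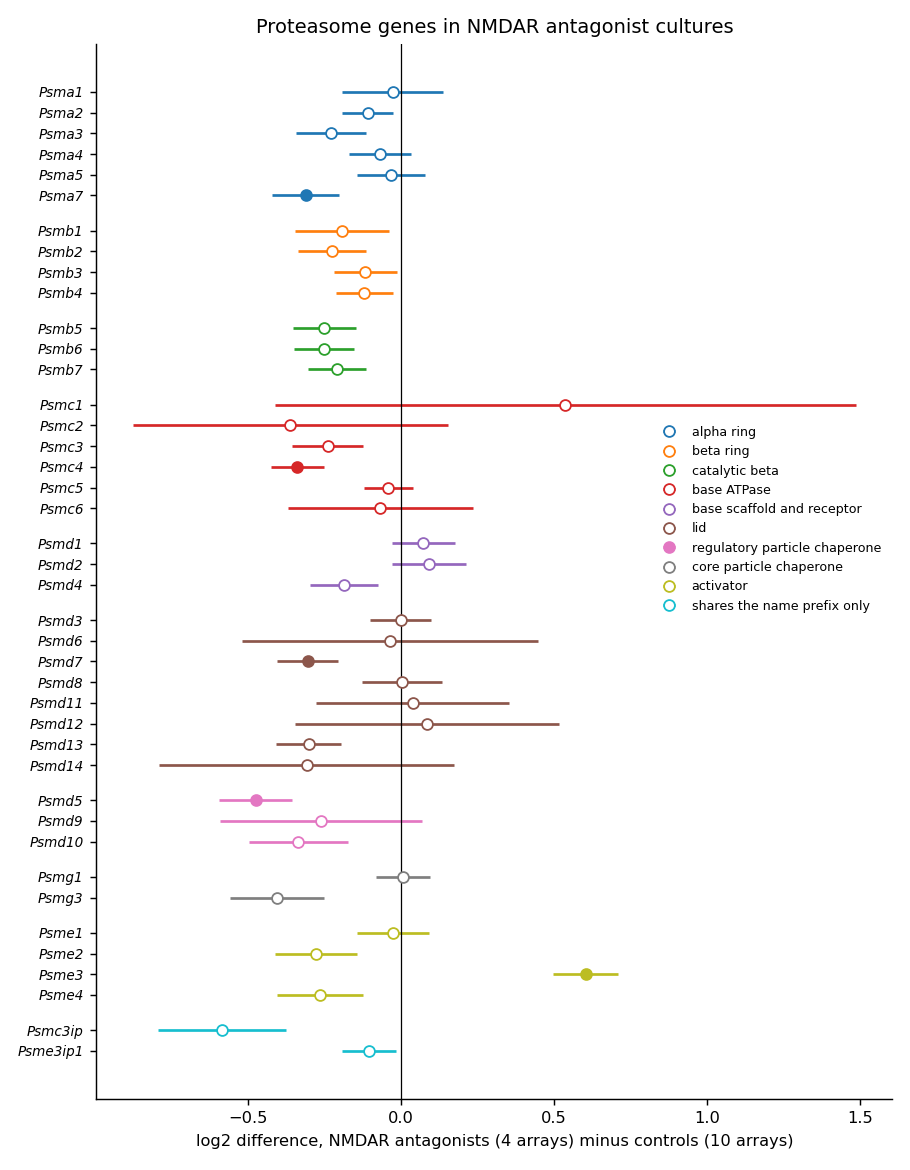
Log2 difference of the 4 NMDAR antagonist arrays minus the 10 controls for each of the 41 genes, grouped by role, with bars of 1 standard error; filled points passed an adjusted p of 0.05. The 13 core genes at the top all lie left of 0, Psme3 lies at 0.60, and the widest bars belong to regulatory genes such as Psmc1.

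Among the alpha ring genes, Psma7 was called. It measured 10.61 with ifenprodil, 10.57 with MK-801, 10.86 with riluzole and 11 with memantine, against 10.85 to 11.30 in the controls (median 11.05). The ifenprodil and MK-801 arrays lay below every control, and the other two lay within their range. The difference was -0.31 ± 0.109 (SE; limma, adjusted p = 0.0493). The other 5 alpha ring genes did not pass, among them Psma2 at -0.11 and Psma3 at -0.23.

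The 3 catalytic subunits moved by like amounts and none passed the adjusted threshold. Psmb5, which carries the chymotrypsin-like activity, measured 9.88 with ifenprodil, 9.81 with MK-801, 9.97 with riluzole and 9.76 with memantine, against 9.86 to 10.31 in the controls. Psmb6, with the caspase-like activity, measured 11.998, 11.87, 12.05 and 12.29 in the same order, against 12.13 to 12.50 in the controls. Psmb7, with the trypsin-like activity, measured 11.47, 11.41, 11.67 and 11.47, against 11.56 to 11.93 in the controls. In each case 2 or 3 of the 4 antagonist arrays lay below every control. The differences were -0.25 ± 0.103 for Psmb5 (adjusted p = 0.0927), -0.25 ± 0.0982 for Psmb6 (adjusted p = 0.0750) and -0.21 ± 0.0935 for Psmb7 (SE; limma, adjusted p = 0.120). Psmb2 and Psmb4, structural members of the beta ring, differed by -0.22 and -0.12 and did not pass. A second probe of Psmb3, another of that ring, gave -0.32 (limma, adjusted p = 0.0297), while its brighter probe gave -0.12 and did not pass.

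In the regulatory particle, the base ATPase Psmc4 and the lid subunit Psmd7 fell. Psmc4 measured 10.86 with ifenprodil, 10.96 with MK-801, 11.01 with riluzole and 11.12 with memantine, against 11.21 to 11.44 in the controls (median 11.34). All 4 antagonist arrays lay below all 10 controls. The difference was -0.34 ± 0.087 (1.26-fold lower; SE; limma, adjusted p = 0.0118). A second, dimmer probe of Psmc4 gave -0.23 (adjusted p = 0.692). Psmd7, a lid subunit that pairs with the deubiquitinase Psmd14, measured 10.52, 10.78, 10.81 and 10.58 with the 4 antagonists in the same order, against 10.77 to 11.16 in the controls. Its groups overlap narrowly, at the lowest control. The difference was -0.30 ± 0.10 (SE; limma, adjusted p = 0.0381), while 2 other probes of Psmd7 gave -0.09 and 0.12 and did not pass. Psmd13, another lid subunit, lay just outside the threshold at -0.30 ± 0.107 (SE; limma, adjusted p = 0.0518). The ATPase Psmc5 differed by -0.04 and did not pass, whereas its second probe gave -0.27 (limma, adjusted p = 0.0460). The scaffold subunits Psmd1 and Psmd2 and the ubiquitin receptor Psmd4 differed by 0.07, 0.09 and -0.19, and none passed.

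Of the assembly factors, Psmd5, a chaperone of the regulatory base, fell. It measured 7.41 with ifenprodil, 7.82 with MK-801, 8.06 with riluzole and 8.02 with memantine, against 8.14 to 8.52 in the controls (median 8.31). The groups did not overlap, and the ifenprodil array was the lowest. The difference was -0.47 ± 0.120 (1.39-fold lower; SE; limma, adjusted p = 0.0109). The other chaperones of the regulatory particle, Psmd9 and Psmd10, differed by -0.26 and -0.33 and did not pass, though 2 further probes of Psmd10 gave -0.54 and -0.61 (adjusted p = 0.00516 and 0.0111). Psmg3, a chaperone of the core particle, measured 7.36, 7.58, 7.88 and 8.05 with the antagonists in the same order, against 7.88 to 8.58 in the controls. Its difference of -0.40 ± 0.153 did not pass (SE; limma, adjusted p = 0.0683).

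Psme3, which forms the nuclear activator ring known as REG gamma, was the member with the clearest difference. It measured 9.14 with ifenprodil, 9.23 with MK-801, 8.93 with riluzole and 9.19 with memantine, against 8.33 to 8.73 in the controls (median 8.54). Every antagonist array lay above every control. The difference was 0.60 ± 0.106 (1.52-fold higher; SE; limma, adjusted p = 0.00144). The other activators differed by -0.02 (Psme1), -0.28 (Psme2) and -0.26 (Psme4), and none passed. Of the 2 genes that share only the prefix, Psmc3ip differed by -0.58 ± 0.210 (SE; limma, adjusted p = 0.0549) and Psme3ip1 by -0.10, and neither passed. Groups that do not overlap were found for 3 of the 41 genes (Psme3, Psmc4 and Psmd5), against 6.02% of all probes.

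The 5 calls had the same direction within chips. On the 3 chips that hold an antagonist and a control, Psme3 was higher on 3 of 3 (mean 0.68, 0.55 to 0.77), and Psmc4 (mean -0.29), Psma7 (-0.28), Psmd7 (-0.36) and Psmd5 (-0.49) were lower on 3 of 3. With the chip as a block Psme3 (0.68) and Psmd7 (-0.36) passed, and Psmc4 (-0.28, adjusted p = 0.0820), Psma7 (-0.28, adjusted p = 0.153) and Psmd5 (-0.46, adjusted p = 0.0535) did not, at sizes close to those without the block. That fit also called Psmd14 (-0.47, adjusted p = 0.0192), Psmg3 (-0.43, adjusted p = 0.0401) and Psmc2 (-0.56, adjusted p = 0.0171), each lower on 3 of 3 chips. It thus called 5 members, against 19.3% of all probes. Against the mock controls alone, a choice made after seeing the data, Psme3 (0.70) and Psmc4 (-0.33) passed, Psmd5 (-0.36, adjusted p = 0.0772), Psmd7 (-0.31, adjusted p = 0.0868) and Psma7 (-0.21, adjusted p = 0.208) did not, and Psma3, Psmd10 and Psmc3ip were called as lower. With the position on the chip as a covariate 0 of the 41 genes and 0 of all probes passed. Without the ifenprodil array Psme3 alone passed, and without the memantine array 9 genes did.

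The stretches upstream of these genes are shown because members that moved lie beside members that did not. Each is the 250 bases before the annotated start from RefSeq (build GRCm38.p6), 5′ to 3′, in lower case. Capitals mark matches, on either strand, to 8 motifs searched: the antioxidant response element core TGACNNNGC, the CCAAT box (CCAAT), an ETS factor motif (CCGGAAGT), the nuclear respiratory factor 1 palindrome, the cAMP response element TGACGTCA, the heat shock element core GAANNTTC, the TATA box (TATAAA) and an E2F motif (TTTGGCGC). Psme3, which rose, lies at chr11:101315963-101316212, plus strand.
Psme3: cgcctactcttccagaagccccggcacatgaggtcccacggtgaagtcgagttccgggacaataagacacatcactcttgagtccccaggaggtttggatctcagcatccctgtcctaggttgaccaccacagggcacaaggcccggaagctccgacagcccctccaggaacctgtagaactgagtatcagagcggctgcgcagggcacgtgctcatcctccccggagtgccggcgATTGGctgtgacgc
Psma7, Psmc4 and Psmd5, which fell, lie at chr2:180042465-180042714, minus strand, at chr7:28050093-28050342, minus strand, and at chr2:34870963-34871212, minus strand.
Psma7: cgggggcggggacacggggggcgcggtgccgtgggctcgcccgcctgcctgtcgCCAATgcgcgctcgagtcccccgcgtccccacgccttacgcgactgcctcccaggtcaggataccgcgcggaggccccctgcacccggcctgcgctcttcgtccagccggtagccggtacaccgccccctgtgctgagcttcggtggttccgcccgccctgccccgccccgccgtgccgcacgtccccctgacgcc
Psmc4: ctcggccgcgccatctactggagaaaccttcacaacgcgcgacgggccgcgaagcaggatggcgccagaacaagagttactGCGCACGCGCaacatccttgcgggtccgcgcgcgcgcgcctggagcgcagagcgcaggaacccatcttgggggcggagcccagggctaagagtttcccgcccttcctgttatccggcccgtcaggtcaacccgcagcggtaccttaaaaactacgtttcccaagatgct
Psmd5: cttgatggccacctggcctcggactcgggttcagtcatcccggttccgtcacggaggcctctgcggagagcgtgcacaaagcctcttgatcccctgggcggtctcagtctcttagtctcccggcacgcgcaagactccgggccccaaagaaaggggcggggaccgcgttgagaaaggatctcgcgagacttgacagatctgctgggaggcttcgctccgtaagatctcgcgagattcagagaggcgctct
The stretches shown are a selection, and Psmd7, which also fell, is not shown. The catalytic subunits Psmb5 and Psmb6 lie at chr14:54617996-54618245, minus strand, and at chr11:70525107-70525356, plus strand, and both hold the antioxidant response element core. The catalytic subunit Psmb7 is not shown and is not among the members whose windows hold that core. It was in 13.2% of member windows and 10.2% of all windows.
Psmb5: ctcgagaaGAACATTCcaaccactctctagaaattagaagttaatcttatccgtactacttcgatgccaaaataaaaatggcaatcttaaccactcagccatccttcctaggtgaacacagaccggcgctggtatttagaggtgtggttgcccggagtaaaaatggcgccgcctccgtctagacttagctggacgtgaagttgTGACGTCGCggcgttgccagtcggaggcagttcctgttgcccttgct
Psmb6: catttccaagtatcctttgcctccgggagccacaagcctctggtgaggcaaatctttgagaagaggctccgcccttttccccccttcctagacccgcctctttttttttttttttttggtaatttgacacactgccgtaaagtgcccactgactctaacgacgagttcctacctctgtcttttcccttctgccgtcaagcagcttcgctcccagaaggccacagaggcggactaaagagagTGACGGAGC

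The Psme3 window holds a CCAAT box on the opposite strand 10 to 14 bases before the start, and the Psma7 window holds one 192 to 196 bases before it. The Psmc4 window holds the nuclear respiratory factor 1 palindrome 160 to 169 bases before the start, and the Psmd5 window holds 0 of the 8 motifs. The antioxidant response element core lies 39 to 47 bases before the start of Psmb5 and ends at the base before the start of Psmb6. Of the 41 genes 35 matched the table, with 38 windows. The antioxidant response element core was in 5 of these 38 windows, against 10.2% of all 32851 windows, and the CCAAT box in 13 of 38, against 33.8%. The ETS motif was in 6 of 38, against 2.88%, and the nuclear respiratory factor 1 palindrome in 6 of 38, against 3.74%. The TATA box was in 3 of 38 (12.4% of all), the heat shock core in 1 (6.69%), the cAMP element in 0 (1.55%) and the E2F motif in 0 (0.417%). A match describes the letters only.

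Psme3 was also above the controls in most cultures that received any other compound. Its level was 8.95 to 9.45 (median 9.14) with the 10 other protective compounds, 8.60 to 9.45 (median 9.23) on the 18 intermediate arrays and 8.31 to 9.26 (median 9.08) with the 6 non-protective compounds, against 8.33 to 8.73 in the controls. It exceeded all 10 controls on 35 of 38 compound arrays, and only 0.0225% of probes did so on as many. The 3 arrays that did not were 4-PPBP (8.31), agmatine (8.51) and clofibric acid (8.60). With the other protective compounds Psme3 was the 1 member of 41 whose groups did not overlap, against 0.0449% of all probes. Of the 41 genes, Psme3 alone passed with the other protective compounds (0.64 ± 0.0858, adjusted p = 0.00379, against 0.298% of all probes called) and with the intermediate compounds (0.67 ± 0.0824, adjusted p = 9.6e-05, against 6.81% of all probes). With the non-protective compounds it did not pass (0.40 ± 0.139, adjusted p = 0.698). These comparisons, and that of the antagonists, share the 10 controls.

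Compounds and controls lie at different positions on the chip, so the level of Psme3 is given by position. The 8 compounds at each of positions C to F averaged 9.04 to 9.25 and the 6 compounds at position B averaged 9.01 (8.31 to 9.45), against 8.59 for the 2 controls at position B and 8.50 for the 8 controls at position A. Within chips, the other protective compounds were higher than the controls on 6 of 6 chips (mean 0.59), the intermediate compounds on 8 of 8 (mean 0.66) and the non-protective compounds on 4 of 5 (mean 0.39). With position as a linear covariate in limma the intermediate compounds (0.71, adjusted p = 0.00800) and the other protective compounds (0.83, adjusted p = 0.00284) passed, and the antagonists (0.71, adjusted p = 0.365) did not. A linear term cannot separate a step between position A and the other positions. With the chip as a block the intermediate compounds passed (adjusted p = 0.000408) and the other protective compounds did not (0.58, adjusted p = 0.0842). Only position B holds both compounds and controls, with 2 controls, so compound and position cannot be told apart for Psme3.

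Psmc4 and Psmd5 were the members most often below the controls. Each lay below all 10 controls on 26 of 38 compound arrays, as did 0.427% of probes on at least as many. Psmc4 ranged over 11.05 to 11.42 (median 11.18) with the other protective compounds, 10.83 to 11.37 (median 11.16) on the intermediate arrays and 10.77 to 11.41 (median 11.23) with the non-protective compounds, against 11.21 to 11.44 in the controls. The lowest values were those of 4-PPBP (10.77) and clofibric acid (10.83). Psmd5 ranged over 7.88 to 8.38 (median 7.98), 7.41 to 8.51 (median 8.01) and 7.76 to 8.67 (median 8.08) in the same 3 groups, against 8.14 to 8.52 in the controls. In these groups the differences of Psmc4 were -0.15, -0.16 and -0.14 and those of Psmd5 were -0.25, -0.28 and -0.19, and none passed (limma, adjusted p from 0.0748 to 0.793). By position, Psmc4 averaged 11.33 in the controls at A and 11.13 to 11.16 in the compounds at C to F. Psmd5 averaged 8.28 and 7.92 to 8.08 in the same order. At position B the compounds averaged 11.15 and 8.09, against 11.30 and 8.40 in the 2 controls. Compound and position cannot be told apart for these genes either.

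**Figure D2:**
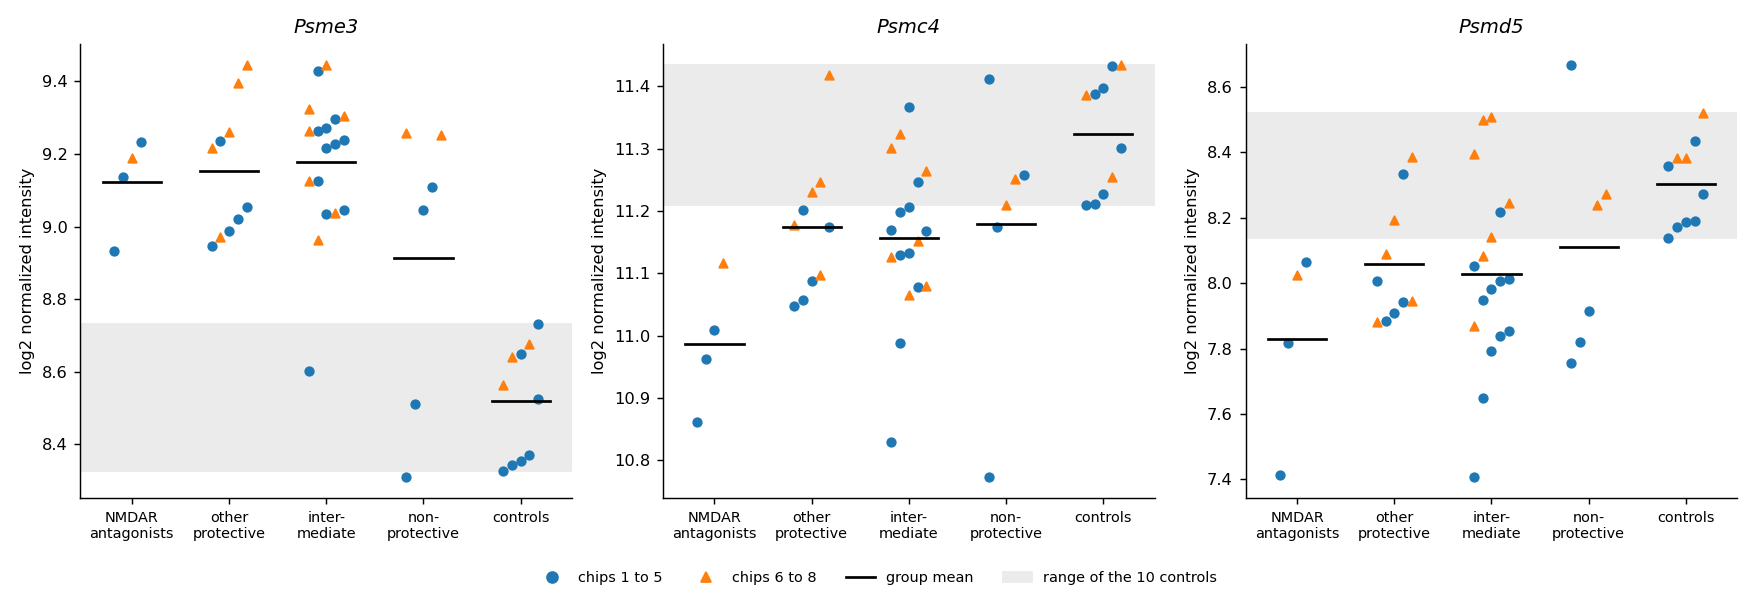
Log2 normalized intensity of Psme3, Psmc4 and Psmd5 on the 48 arrays by group, with each point an array, bars at the group means over arrays and the range of the 10 controls shaded. Psme3 lies above the shaded range on 35 of 38 compound arrays, and Psmc4 and Psmd5 lie below it on 26 each.

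No other member separated the groups. With the non-protective compounds 0 of 41 genes passed, against 0.00561% of all probes, and 4 had an unadjusted p under 0.05, against 6.67% of all probes. Their 13 core genes all had negative differences, with a median of -0.12 against -0.01 over all probes. These signs too come from the same arrays and are not independent. With the other protective compounds and the intermediate compounds 10 of 13 core genes were negative, with medians of -0.07 and -0.05. The antagonists against the other protective compounds gave 0 calls of 41, against 3.65% of all probes, and 1 gene had an unadjusted p under 0.05, against 16.5% of all probes. Their core genes were lower in 12 of 13 cases, with a median difference of -0.12 against -0.05 over all probes.

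The study's own division, the protective class (14 arrays) against the non-protective class with its controls (16 arrays), gave 1 call of 41, against 7.63% of all probes. It was again Psme3, at 0.48 ± 0.0979 (SE; limma, adjusted p = 0.0139), with means of 9.14 in the protective class and 8.67 in the non-protective class. Without the 4 antagonists the difference was as large and did not pass (0.49 ± 0.114, adjusted p = 0.166), as with position as a covariate (0.38 ± 0.152, adjusted p = 0.263), and 10 of the 16 arrays of the non-protective class are controls. Psmb5, Psmb6 and Psmb7 differed between the classes by -0.12, -0.12 and -0.07 and did not pass. Over the 36 compounds alone, 0 members and 0% of probes had a slope on the log2 protection ratio that passed. Psma1, an alpha ring subunit, was the 1 gene with an unadjusted p under 0.05, against 5.15% of all probes (0.32 ± 0.117 per doubling of the ratio, adjusted p = 0.862). The slope of Psme3 was 0.19 ± 0.101 (adjusted p = 0.863).

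The solvent comparison gave 0 calls of 41 and 0% of all probes, with an unadjusted p under 0.05 for 11 members and 19.9% of probes. With the chip as a block, a fit that rests on the 2 chips with both solvents, 3 members (Psmb3 higher, Psmc3ip and Psmd12 lower) and 24.6% of probes passed. On both of these chips the mock control is at position A and the vehicle control at position B, so solvent and position cannot be told apart there. Psmd12 had the smallest p of the members, at 6.69, 7.20, 5.41, 5.36 and 5.78 with vehicle, against 7.20, 7.45, 7.60, 7.25 and 6.92 in the mock controls. The 3 low vehicle arrays are those of chips 6 to 8, where no mock control was placed. Psmd5 was 8.36 to 8.52 with vehicle, against 8.14 to 8.27 in the mock controls, and did not pass (0.22 ± 0.0876, adjusted p = 0.202).

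To set the core against the regulatory particle on each array, the log2 values of each were averaged after subtracting the control mean of each gene. The core score averaged -0.16 ± 0.085 in the antagonists (SD, n = 4), -0.05 ± 0.087 in the other protective compounds (n = 10), -0.07 ± 0.105 on the intermediate arrays (n = 18) and -0.13 ± 0.120 in the non-protective compounds (n = 6), against a spread of 0.060 (SD) in the 10 controls. It lay below all 10 controls on 18 of 38 compound arrays and above them on 1. By group these were 3 of 4 antagonists, 4 of 10 other protective compounds, 7 of 18 intermediate arrays and 4 of 6 non-protective compounds. Against the controls of the same chip the core score was negative on 34 of 38 compound arrays. Most chips hold a single control array, which all compounds of that chip share as reference, so these signs are not independent. Compounds and controls also lie at different positions, so compound and position cannot be told apart for the core score.

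The lowest core scores did not belong to the antagonists alone. 4-PPBP, a non-protective sigma receptor ligand, had -0.36, clofibric acid -0.28, MK-801 -0.25, MitoPBN -0.23 and ifenprodil -0.22. On the 4-PPBP array 8 of 13 core genes lay below all 10 controls, and on the clofibric acid array 7 did. Both of these compounds had ethanol as solvent, for which there is no control. Under median scaling the core median of the other protective compounds turned to 0.0011, with 6 of 13 genes negative, and that of the protective class to 0.034.

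The regulatory score lay below all controls on 2 compound arrays and above them on 1. It averaged -0.08 ± 0.360 in the antagonists (SD, n = 4), -0.03 ± 0.334 in the other protective compounds, -0.02 ± 0.248 on the intermediate arrays and -0.09 ± 0.279 in the non-protective compounds, against a spread of 0.291 in the controls. Against the controls of the same chip, again mostly a single shared array, it was negative on 17 compound arrays and positive on 21. The difference of core and regulatory score averaged -0.08, -0.02, -0.05 and -0.04 in the 4 groups of compounds in the same order, each smaller than 1 SD of the controls (0.310). Memantine had the highest difference of all arrays (0.51), but the control of its chip, vehicle 2, had 0.49, which leaves 0.02 within the chip. Of the other protective compounds 2 lay below all controls, rolipram and cyclophosphamide. Against the control of their chip they differed by -0.43 and -0.02.

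**Figure D3:**
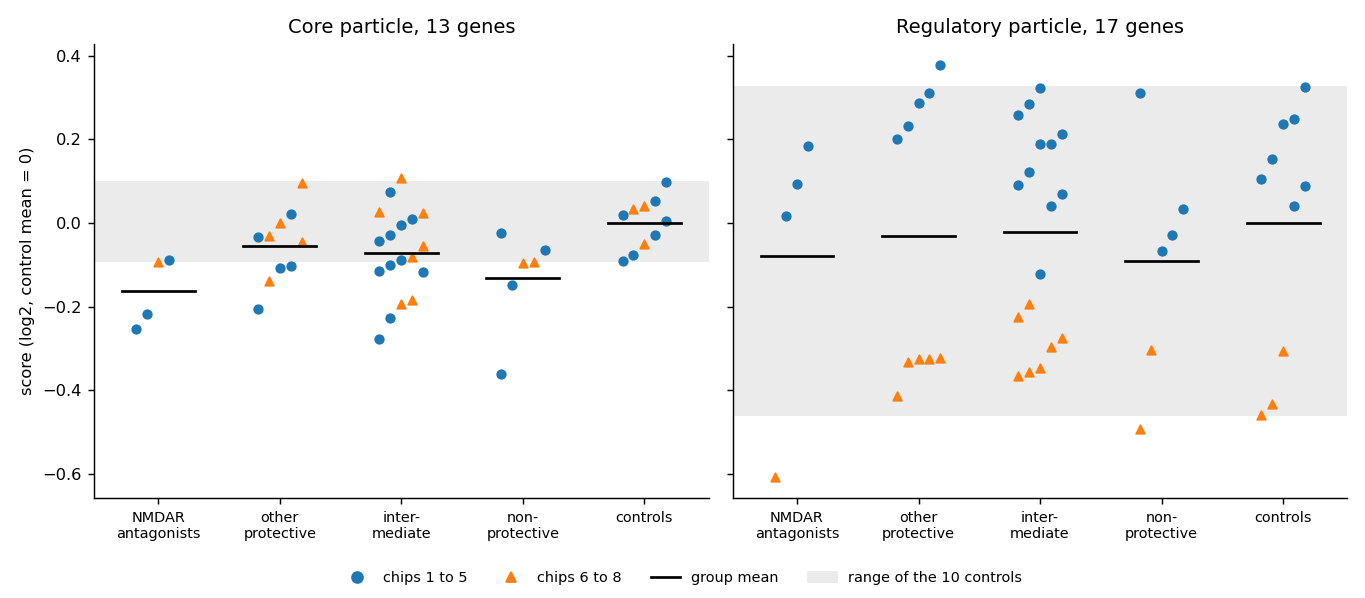
Core particle score (left) and regulatory particle score (right) of the 48 arrays by group, in log2 units with the control mean at 0; circles are chips 1 to 5, triangles chips 6 to 8, bars group means and the shading the range of the 10 controls. Core scores lie below the shading on 18 of 38 compound arrays, while the regulatory scores fall into a band per chip set in every group.

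The wide spread of the regulatory score followed the chips. It averaged -0.36 on the 18 arrays of chips 6 to 8 (-0.61 to -0.20) and 0.16 on the 30 arrays of chips 1 to 5 (-0.12 to 0.38), with no overlap, while the core score averaged -0.04 and -0.08. Of the 41 genes 30 differed between the 8 chips (limma's moderated F test), against 52.1% of all probes. By more than 0.5, 7 members were lower on chips 6 to 8, against 12.3% of all probes, and these were 6 regulatory genes and the chaperone Psmd9, with 0 core genes among them. Of the 41 genes, 5 had every array of chips 6 to 8 below every array of chips 1 to 5, against 3.86% of all probes.

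Psmd14, the deubiquitinase that removes ubiquitin chains at the entrance, averaged 7.52 on chips 6 to 8 and 9.32 on chips 1 to 5 and was detected on all 48 arrays. The ATPase Psmc2 averaged 5.49 and 7.35 in the same order, the lid subunit Psmd12 5.65 and 7.19, and Psmd9 5.69 and 6.83. These 3 were not well above background on 15 (Psmc2), 10 (Psmd12) and 9 (Psmd9) of the 18 arrays of chips 6 to 8, so their means there lie near background. The ATPase Psmc6 and the lid subunits Psmd6 and Psmd11 were not well above background on any of the 18 arrays of chips 6 to 8 and have only a bound there.

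Second probes of the same genes did not always share the pattern. The described probes of Psmc4 and Psmb2 differed by 0.07 and 0.11 between the chip sets, whereas their dimmer probes differed by -1.17 and -0.89. The described probe of Psmd9 differed by -1.15, and its 2 dimmer probes by 0.03 and 0.18. Over the whole array 956 probes (5.37%) were lower by more than 1 on chips 6 to 8 and 0% were higher by as much. Chips 6 to 8 hold 1 antagonist (memantine) and 3 vehicle controls, and chips 1 to 5 hold 3 antagonists and 7 controls. Without the 6 regulatory probes the regulatory score averaged 0.03 on chips 6 to 8 and 0.02 on chips 1 to 5. These probes were picked by their gap between the chip sets, so its loss follows from the choice. The difference of core and regulatory score was then -0.10, -0.12, -0.11 and -0.12 in the antagonists, the other protective, the intermediate and the non-protective compounds, against a spread of 0.159 (SD) in the controls. The 11 regulatory genes left still include the ATPase Psmc1, whose level ranged over 4.71 log2 units across the arrays. Its part in these differences and in the spread of the controls was not separated.

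**Figure D4:**
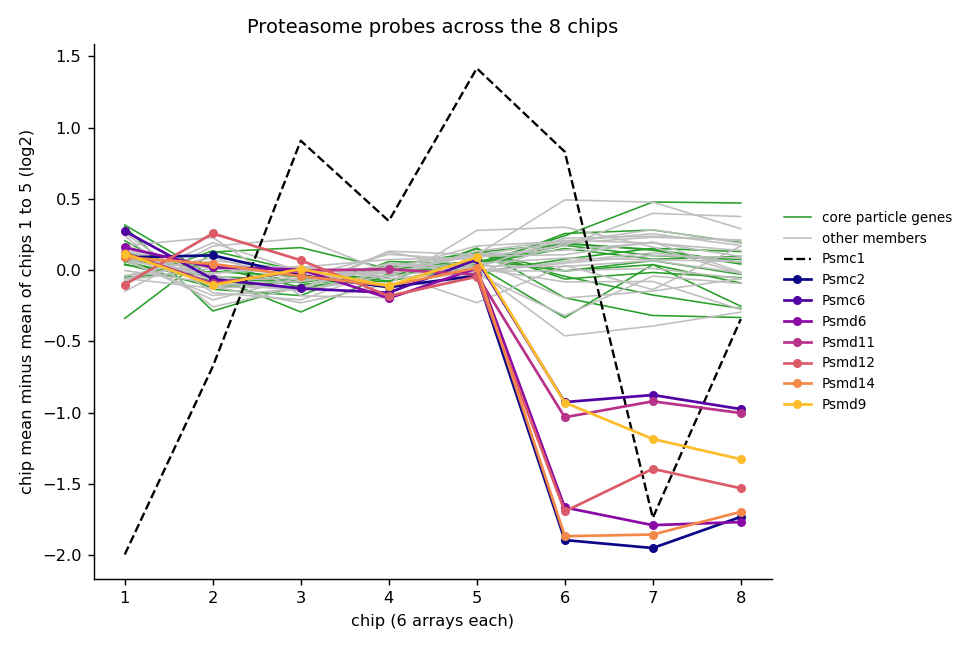
Mean of each gene on each chip less its mean over chips 1 to 5, in log2 units, with core genes in green and 7 members that were lower by more than 0.5 on chips 6 to 8 in colour. The 7 drop together between chips 5 and 6, the core genes do not, and Psmc1 varies from chip to chip.

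Psmc1, another ATPase of the base, varied most of all members, from 4.72 (memantine) to 9.43 (deprenyl), and was detected on 39 of 48 arrays. Low and high values occurred within every kind of sample. With the antagonists it measured 8.02, 8.49, 8.49 and 4.72, against 4.89, 8.44, 8.60, 5.54 and 5.48 in the vehicle controls and 4.92, 8.37, 8.64, 4.99 and 9.04 in the mock controls. Its difference of 0.54 ± 0.95 says nothing about a direction (SE; limma, adjusted p = 0.735).

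The inducible subunits are set beside the constitutive ones. Psmb8, Psmb9 and Psmb10 replace Psmb5, Psmb6 and Psmb7 when interferon induces the immunoproteasome, and 2 of the intermediate compounds are type I interferons with 1 array each, so their values have no replicate check. Psmb8 measured 10.65 with interferon-a2b and 10.21 with interferon-b1a, against 9.41 to 10.14 in the controls. Psmb9 measured 9.58 and 9.04, against 8.07 to 9.40 in the controls, and Psmb10 measured 9.72 and 9.46, against 8.76 to 9.42. Both interferon arrays exceeded every control for Psmb8 and Psmb10, and interferon-a2b alone did so for Psmb9. The share of all probes above every control on these arrays was not counted, so these values have no background. The other compound arrays reached 10.208 for Psmb8, just below interferon-b1a (10.213), 9.18 for Psmb9, above interferon-b1a, and 9.86 for Psmb10, above both.

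The constitutive partners stayed within the range of the controls on both arrays: Psmb5 at 10.02 and 10.23 (controls 9.86 to 10.31), Psmb6 at 12.21 and 12.27 (12.13 to 12.50) and Psmb7 at 11.69 and 11.72 (11.56 to 11.93). The activator Psme1 measured 10.85 with interferon-a2b and 10.75 with interferon-b1a, above the controls (10.18 to 10.69) and above the other 36 compound arrays (at most 10.74). Its ring partner Psme2 measured 9.35 and 9.08 and stayed within the controls (8.74 to 9.49). None of these differences from the control mean reached 1 log2 unit, a size that 0.578% of probes passed with interferon-a2b and 2.05% with interferon-b1a. In the antagonists Psmb8 was lower than in the controls (9.18 ± 0.134 against 9.72 ± 0.238, SD, n = 4 and 10; limma, adjusted p = 0.00958), and Psmb9 and Psmb10 did not pass.

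**Figure D5:**
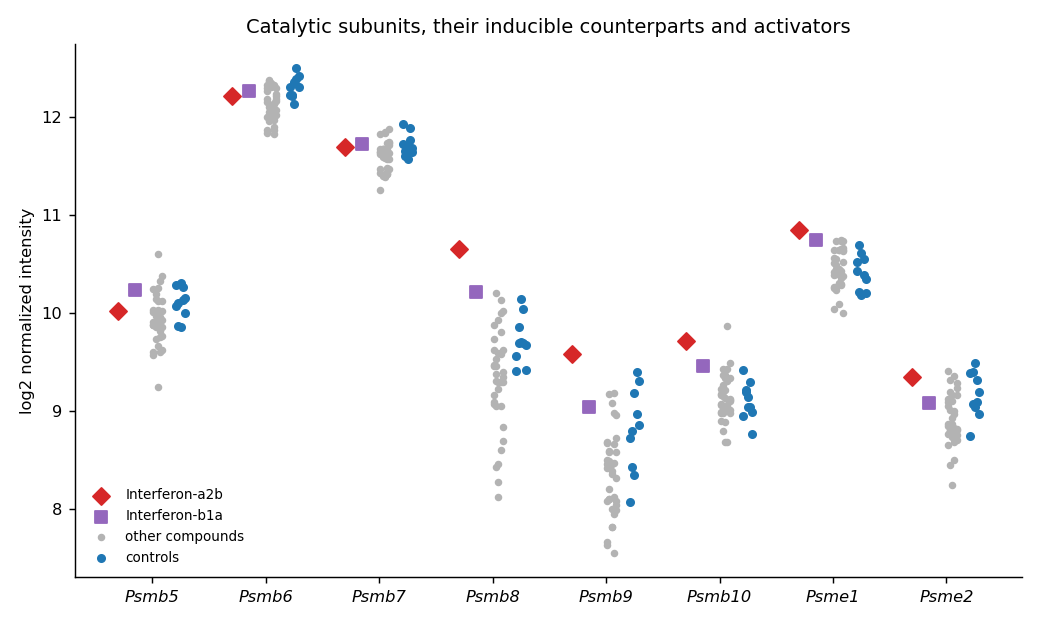
Log2 normalized intensity of the catalytic subunits Psmb5, Psmb6 and Psmb7, their inducible counterparts Psmb8, Psmb9 and Psmb10, and the activators Psme1 and Psme2 on the 2 interferon arrays, the other compound arrays and the 10 controls, with each point an array. Psmb8 and Psmb10 lie above every control on both interferon arrays, and the 3 constitutive subunits lie among the controls.

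Of the other genes of the pathway, 19 of 34 listed were measured. With the antagonists 3 rose and 2 fell, a share near that of all probes (12.2% higher and 11.3% lower). Uchl1, a neuron-rich ubiquitin hydrolase, rose by 0.89 ± 0.228 (adjusted p = 0.0117), the shuttle factor Rad23b by 0.39 (adjusted p = 0.0370) and the ubiquitin ligase Ube3c by 0.36 (adjusted p = 0.0377). Nfe2l2, a transcription factor of the antioxidant response, fell by 0.80 (adjusted p = 0.00431), and the proteasome inhibitor Psmf1 fell by 0.42 (adjusted p = 0.0127). Nfe2l1, the factor that restores proteasome genes when the proteasome is inhibited, differed by 0.11, and Pomp, the maturation factor of the core, by -0.11, and neither passed. The list's median was 0.07, against -0.05 over all probes. With the other protective, intermediate and non-protective compounds 0 of the 19 passed.

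Markers of cell types moved in the same comparison, in which 23.5% of all probes were called. All 9 neuron markers rose with the antagonists, and their summed level was 11581 to 18419, against 2859 to 11518 in the controls. All 3 measured markers of dividing cells fell (summed level 711 to 1753, against 1154 to 3038), as did 2 of 4 endothelial, mural and fibroblast markers and 2 of 5 astrocyte markers. Of the 5 oligodendrocyte lineage and 4 microglia markers 0 passed. A high summed level of neuron markers was not particular to the antagonists. It reached 18210 (nimodipine; median 7733) on the intermediate arrays and 15014 (4-PPBP; median 4809) with the non-protective compounds. With the other protective compounds it was at most 9212 (median 6318). The control median was 3661, and the highest control was vehicle 1. In such cultures fewer cells of a type and less RNA per cell cannot be told apart, and the part of these markers in the proteasome values was not tested.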

How the data were processed

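Per the labels, RNA of 48 NMDA-exposed cultures was hybridised to Illumina arrays, 6 on each of 8 chips. Per the submitters' processing notes the signals come from BeadStudio, with version and settings not given in the sources used here. The deposited signals are linear intensity values of each probe without background subtraction, and per the file headers each is followed by its detection p-value. The authors' second table holds the same intensity less 1 constant per array (32.3 to 111).

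The 46632 probes were background corrected with limma's normexp model from the detection p-values (offset 16), then quantile normalized, then log2 transformed. The platform annotation that names the probes is old. Probes with a detection p under 0.01 on at least 6 arrays (17815) were tested with limma 3.58.1 in R 4.3.3 (lmFit and eBayes, two-sided, Benjamini-Hochberg at 0.05 over all of them), with only the arrays compared in each fit and with repeat arrays of a compound averaged. The number of arrays limits the precision. On simulated data with 100 changed probes of each size, the fit of 4 antagonists against 10 controls recovered 23% of changes of 0.5 and 79% of changes of 1 log2 unit. The data had 23.5% of probes called in this comparison, a far larger share, so these rates need not hold for single members.

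Named with values are all called members, the member with the smallest p in each role, the 3 of highest and the 3 of widest range over arrays, the catalytic subunits, and called genes of the pathway list. Psmc4 and Psmd5 over all compounds, Psma1, Psma3, Psmd13, Psmc3ip, Psme3ip1, the second probes and the low probes of chips 6 to 8 were named beyond that rule after their values were seen. The members and lists were chosen with earlier results of these data known. Alternatives were other scalings, background corrections and filters, chip, position or chip set as terms, means over probes, and leaving out arrays. Figures were drawn with matplotlib 3.10.9.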

Additional observations from a re-analysis of the deposited data

Results flagged for a closer look

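In groups of 4 to 10 arrays, an array was singled out where its gap to the nearest other array was a large share of the whole range of the group (Dixon's criterion). Chance alone does this in about 1 of 20 groups, and of 95 groups examined for the named genes and scores 11 were singled out. The 4-PPBP array was the lowest of the non-protective compounds for Psmc4 (10.77, others 11.17 to 11.41), Psmb2 (10.56, others 11.02 to 11.24), Psmb7 (11.26, others 11.57 to 11.73) and the core score (-0.36, others -0.15 to -0.02). The memantine array was the lowest of the antagonists for Psmc1 (4.72, others 8.02 to 8.49) and Psmc2 (5.26, others 6.96 to 7.08) and the highest for the core score less the regulatory score (0.51, others -0.31 to -0.27). It is the 1 antagonist array on chips 6 to 8. The ifenprodil array was the lowest antagonist for Psmb2 (10.67, others 10.90 to 10.92). Among the mock controls, the array of replicate 4 was the highest for Psme3 (8.73, others 8.33 to 8.37) and the lowest for Psmc2 (7.02, others 7.63 to 7.77). Among the vehicle controls, replicate 4 was the lowest for Psmd4 (11.28, others 11.61 to 11.72).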

How the results depend on the processing

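With the antagonists the count of members called was 5, and it was 0 with position as a covariate, 15 with the chip set as a term (chosen after seeing the data, with 33.5% of all probes called) and 1 to 9 when 1 array was left out, with 1 without ifenprodil, 9 without memantine and 3 without MK-801, mock 1, mock 4, vehicle 4 or vehicle 5. The core median of -0.19 was -0.13 without a detection filter, -0.12 with the chip as a block, -0.26 with position and -0.22 to -0.15 when 1 array was left out, and the regulatory median was -0.72 with position. Psmd12 turned to -0.081 with the chip as a block, to -1.28 with position and ranged from -0.086 to 0.44 when 1 array was left out, Psmc1 turned to -1.69 with position, and Psmc2 ranged from -0.53 to 0.075 when 1 array was left out, with 0.075 without memantine. Under median scaling the core median was 0.0011 with the other protective compounds, -0.18 for antagonists against other protective compounds, 0.034 between the classes, 0.12 for vehicle against mock and 0.092 for the slope. The count was 0 with the chip as a block for the other protective compounds. For the intermediate compounds it was 2 with the chip as a block (10.6%), 2 with means over probes (7.01%) and 3 with the chip set as a term (12.4%). Between the classes it was 0 with position, 0 without the 4 antagonists and 2 with the chip set as a term (12.5%). For vehicle against mock it was 3 with the chip as a block (24.6% of all probes), 11 with position (24.1%) and 0 to 2 when 1 array was left out (2 without vehicle 5). With the replicate block it was 0, and the replicate numbers do not pair these controls, since their correlations were -0.14 to 0.15. The causes were not tested. The other 405 headline values kept their side and direction. Of the further values checked, 326 stayed the same, 38 were weaker, 8 were stronger and 9 were reversed. A fit over all groups at once was not run for the slope. With 4 antagonists, changes of 0.5 log2 were recovered in 23% of simulated cases. Far fewer probes were changed there than the 23.5% called in the data, so this rate need not hold for the members. A member that did not pass may still differ by the size seen in the core genes.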
